A study of Mus musculus with 28 samples.

Results

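Txnip encodes an alpha-arrestin, and it is described here with the alpha-arrestins Arrdc1, Arrdc2, Arrdc3 and Arrdc4 and with Mlxip and Mlxipl, which encode glucose-sensing transcription factors. These 7 genes, of 55385 in the RNA table, were found by matching Ensembl identifiers to symbols, and all 7 were among the 17789 genes that passed the filter on low counts. The set was picked because Txnip was higher with MS-275, a benzamide inhibitor of class I histone deacetylases (entinostat), so the MS-275 values of its members are given as a description, with no test. The cells were mouse P19 embryonal carcinoma cells, a teratocarcinoma line that makes neural cells when exposed to retinoic acid, and every library came from this 1 line. RNA was measured in 5 groups of 2 libraries. Day 0 cells grew in serum-containing medium with no retinoic acid. Day 4 cells, which the labels call neural stem and progenitor cells, had received 1 uM retinoic acid for 4 days, and day 8 cells, labelled neurons, had then spent another 4 days on coated dishes in medium with B27. Both day 2 groups had 1 uM retinoic acid for 2 days and, from day 1, either 1 uL of DMSO or 1 uL of a 10 mM MS-275 stock; no source used here gives the culture volume, and so the final dose. The 14 peak lists comprise ATAC-seq, which marks open chromatin, and native ChIP-seq for acetylated H3K9 (H3K9ac), crotonylated H3K9 (H3K9cr) and lactylated H3K18 (H3K18la). Each day 4 assay had 2 libraries, and each mark had 1 library with DMSO and 1 with MS-275 at day 2.

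Txnip binds reduced thioredoxin and limits glucose uptake by promoting the removal of glucose transporters from the cell surface. Alpha-arrestins act as adaptors that bring NEDD4 family ubiquitin ligases to membrane proteins. Mlxip (also called MondoA) and Mlxipl (ChREBP) pair with Mlx, respond to phosphorylated glucose, and bind carbohydrate response elements, which are pairs of E-box-like sites separated by a short spacer; Txnip and Arrdc4 are their best-known shared targets.

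The 250 bases before the RefSeq start of Txnip, of Arrdc4 and of each of the 2 starts of Mlxipl are shown because they hold, or lack, these elements (GRCm38.p6, 5′ to 3′ on the gene's strand). Capitals mark the E-box-like site CACGNG, the E-box CACGTG (a form of the same site) and CCAAT, the box bound by NF-Y, on either strand. The windows are Txnip, chr3:96557707-96557956, plus strand; Arrdc4, chr7:68749239-68749488, minus strand; Mlxipl upstream start, chr5:135089640-135089889, plus strand; and Mlxipl downstream start, chr5:135106641-135106890, plus strand.
Txnip: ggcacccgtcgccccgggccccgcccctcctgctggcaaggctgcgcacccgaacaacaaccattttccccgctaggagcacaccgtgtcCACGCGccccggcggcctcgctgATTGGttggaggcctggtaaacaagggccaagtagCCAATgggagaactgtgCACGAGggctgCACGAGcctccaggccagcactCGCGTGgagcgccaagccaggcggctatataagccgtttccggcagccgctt
Arrdc4: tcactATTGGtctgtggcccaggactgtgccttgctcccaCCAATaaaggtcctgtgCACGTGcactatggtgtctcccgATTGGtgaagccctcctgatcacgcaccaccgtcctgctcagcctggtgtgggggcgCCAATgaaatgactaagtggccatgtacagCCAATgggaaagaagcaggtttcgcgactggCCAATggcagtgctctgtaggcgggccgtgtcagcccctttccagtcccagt
Mlxipl upstream start: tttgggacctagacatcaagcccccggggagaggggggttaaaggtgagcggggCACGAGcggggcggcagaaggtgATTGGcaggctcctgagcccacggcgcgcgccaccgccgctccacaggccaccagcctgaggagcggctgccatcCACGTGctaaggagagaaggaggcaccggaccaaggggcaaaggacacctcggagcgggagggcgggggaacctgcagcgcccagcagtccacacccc
Mlxipl downstream start: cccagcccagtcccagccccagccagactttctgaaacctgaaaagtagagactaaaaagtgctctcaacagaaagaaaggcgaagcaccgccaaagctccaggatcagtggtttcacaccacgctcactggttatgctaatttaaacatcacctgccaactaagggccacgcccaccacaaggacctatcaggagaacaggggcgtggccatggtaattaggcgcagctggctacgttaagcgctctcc

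The Txnip window held 4 CACGNG sites, and the pair at -85 to -80 and -74 to -69 from the start was separated by 5 bases, as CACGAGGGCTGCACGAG. This paired layout (CACGNG or CNCGTG, 5 bases, CACGNG or CNCGTG) was found in 27 of 32851 RefSeq windows of 300 bases, or 0.0822%, and these windows belonged to 26 of 27025 genes. At least 4 CACGNG sites were found in 130 windows, or 0.396%, while any such site was found in 27.5%. The Arrdc4 window held 1 E-box, at -193 to -188, and 6 CCAAT boxes. E-boxes were found in 7.15% of all windows and CCAAT in 37.4%, and at least 6 CCAAT boxes were found in 26 windows, or 0.0791%. The upstream Mlxipl window held an E-box at -98 to -93 and a second CACGNG site at -196 to -191, while the downstream one held none of the motifs searched, the GC box GGGCGG (35.7% of windows) included. CACGNG sites were also found 1 time before Arrdc2 and 2 times before Arrdc1, and none was found in the windows of Arrdc3 (3 starts) and Mlxip. For Mlxip and Arrdc1 the window belongs to a RefSeq start inside the gene, at 123394798 and 24935281, while the peaks described below were sought at the outer end of the gene, at 123394521 and 24935335. The cut-offs of 4 CACGNG sites and 6 CCAAT boxes equal the counts in the Txnip and Arrdc4 windows, so those shares are a description. A match gives letters in a window and not a bound site.

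The RNA libraries held between 18115926 and 19586374 estimated counts each. Summed levels of 6 pluripotency markers (Pou5f1, Nanog and others) were 2342 to 2362 CPM (counts scaled to the total of the library) at day 0, 49.7 to 52.0 CPM with DMSO, 125 to 131 CPM with MS-275, 3.31 to 4.94 CPM at day 4 and 55.3 to 65.5 CPM at day 8. Those of 6 neuronal markers (Tubb3, Map2 and others) were 129 to 133 CPM at day 0 and 3301 to 3546 CPM at day 8. In between, the neuronal sums were 254.1 to 274.6 CPM with DMSO, 346 to 364 CPM with MS-275 and 2087 to 2182 CPM at day 4. The day 4 libraries, labelled neural stem and progenitor cells, thus already held neuronal marker RNA far above the day 0 level. The 6 neural stem and progenitor markers (Sox1, Pax6, Nes and others) summed to 407 to 419 CPM at day 0, 968 to 1042 CPM at day 4 and 1174 to 1191 CPM at day 8. At day 2 their sums were 682 to 690 CPM with DMSO and 750 to 800 CPM with MS-275. Markers of fibroblasts (Col1a1, Col1a2, Col3a1, Dcn, Lum) summed to 23.7 to 26.1 CPM with DMSO, 447 to 488 CPM with MS-275, 735 to 839 CPM at day 4 and 1175 to 1223 CPM at day 8, against 37.1 to 45.03 CPM at day 0, where Lum had no count. The 4 astrocyte markers summed to at most 7.29 CPM before day 8 and to 21.6 to 30.5 CPM at day 8. These lists also differed between the groups, each in its own order, and their part in the results was not tested. In such bulk libraries, more cells of a type and more RNA per cell cannot be told apart. The 2 MS-275 libraries differed from each other in some genes. Ddit4, which encodes an inhibitor of mTORC1, stood at 33.8 and 222 CPM, and Hk2, the inducible hexokinase, at 30.7 and 121 CPM. Slc2a3 (634 and 1089 CPM), Slc2a1 (343 and 521 CPM) and Gpi1 (454 and 903 CPM) were also higher in replicate 2. These genes were singled out for that difference, and Hk1 stood at 102 and 99.6 CPM in the same libraries.

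Txnip was nearly silent in untreated cells, at 2.36 and 2.02 CPM at day 0. It stood at 41.5 and 45.3 CPM at day 4 and at 91.3 and 99.8 CPM at day 8. In the day 2 cells it reached 89.4 and 81.3 CPM with DMSO and 1064 and 955 CPM with MS-275. No pair of groups overlapped, and the order from lowest to highest was day 0, day 4, day 2 with DMSO, day 8 and day 2 with MS-275, so that the day 4 level lay below that of the DMSO cells of day 2. Tested across all genes by edgeR quasi-likelihood, with p-values adjusted by Benjamini-Hochberg, Txnip rose 19.7-fold from day 0 to day 4 (log2 4.30, SE 0.128, adjusted p = 1.32e-14) and a further 2.201-fold from day 4 to day 8 (log2 1.14, SE 0.0748, adjusted p = 3.16e-09). Day 8 against day 0, which shares its libraries with the other 2 comparisons, gave 43.4-fold (log2 5.44, SE 0.118, adjusted p = 2.96e-16).

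Arrdc4 is the closest relative of Txnip and, like it, a known target of Mlxip. Its level was 2.78 and 1.96 CPM at day 0, 33.6 and 30.8 CPM at day 4 and 50.9 and 49.2 CPM at day 8. At day 2 it was 44.4 and 39.2 CPM with DMSO and 70.5 and 61.9 CPM with MS-275. The groups stood in the same order as for Txnip, again with no overlap between neighbours. Arrdc4 rose 13.47-fold from day 0 to day 4 (log2 3.75, SE 0.147, adjusted p = 5.10e-13, edgeR) and 1.55-fold from day 4 to day 8 (log2 0.63, SE 0.0960, adjusted p = 4.94e-05).

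Arrdc3, an adaptor in the trafficking of beta-adrenergic receptors, was the alpha-arrestin that fell after day 4. It was at 11.8 and 10.4 CPM at day 0, 41.6 and 40.2 CPM at day 4 and 26.4 and 18.3 CPM at day 8. With DMSO it was at 25.03 and 26.2 CPM, inside the day 8 range, and with MS-275 at 43.0 and 58.9 CPM. It rose 3.68-fold from day 0 to day 4 (log2 1.88, SE 0.163, adjusted p = 1.91e-08, edgeR) and fell 1.83-fold from day 4 to day 8 (log2 -0.87, SE 0.149, adjusted p = 1.65e-04).

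Arrdc2, a less studied member of the family, had its lowest level at day 0, at 2.78 and 2.69 CPM. It stood at 4.76 and 6.08 CPM with DMSO, 9.81 and 9.31 CPM with MS-275, 7.30 and 7.94 CPM at day 4 and 8.79 and 7.57 CPM at day 8. Days 4 and 8 overlapped and the other neighbouring groups did not. Arrdc2 rose 2.78-fold from day 0 to day 4 (log2 1.47, SE 0.193, adjusted p = 3.03e-06, edgeR), and day 8 against day 4 gave a log2 difference of 0.10 (95% interval -0.26 to 0.46, adjusted p = 0.668).

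Arrdc1, which drives the budding of vesicles at the plasma membrane, was the 1 alpha-arrestin with no call along the time course. Its level was 9.25 and 8.36 CPM at day 0, 7.40 and 8.89 CPM at day 4 and 10.49 and 10.1 CPM at day 8. With DMSO it was lowest, at 5.13 and 5.74 CPM, and with MS-275 highest, at 15.4 and 12.7 CPM. Days 0 and 4 overlapped, with a log2 difference of -0.11 (95% interval -0.44 to 0.21, adjusted p = 0.519, edgeR), and day 8 against day 4 gave 0.34 (0.02 to 0.66, adjusted p = 0.0876).

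Of the glucose-sensing factors, Mlxip varied little. It was at 62.2 and 60.2 CPM at day 0, 88.2 and 86.8 CPM at day 4 and 110 and 96.9 CPM at day 8. At day 2 it was at 81.2 and 88.4 CPM with DMSO, overlapping day 4, and at 103 and 107 CPM with MS-275, overlapping day 8. It rose 1.43-fold from day 0 to day 4 (log2 0.52, SE 0.0717, adjusted p = 6.16e-06, edgeR). The further 1.18-fold rise to day 8 (log2 0.24, adjusted p = 0.0104) lost its call in some of the fits with 1 library left out. Without replicate 1 or 2 of day 4 the log2 difference was 0.24 and 0.21 (adjusted p = 0.0557 and 0.0859), and without replicate 1 of day 8 it was 0.14 (adjusted p = 0.160).

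Mlxipl went the other way. It was at 10.4 and 10.2 CPM at day 0, 2.26 and 2.17 CPM at day 4 and 2.95 and 2.65 CPM at day 8, which put day 0 apart from both later days. With DMSO it was already at 2.15 and 1.93 CPM, and with MS-275 it stood at 31.0 and 28.4 CPM, above every other library. It fell 4.64-fold from day 0 to day 4 (log2 -2.21, SE 0.162, adjusted p = 2.09e-09, edgeR), and day 8 against day 4 gave 0.34 (95% interval -0.07 to 0.75, adjusted p = 0.192). Mlx, the partner of both factors, was at 57.8 and 59.8 CPM at day 0 and at 32.8 and 31.5 CPM at day 4, a 1.83-fold fall (adjusted p = 1.43e-08).

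**Figure D1:**
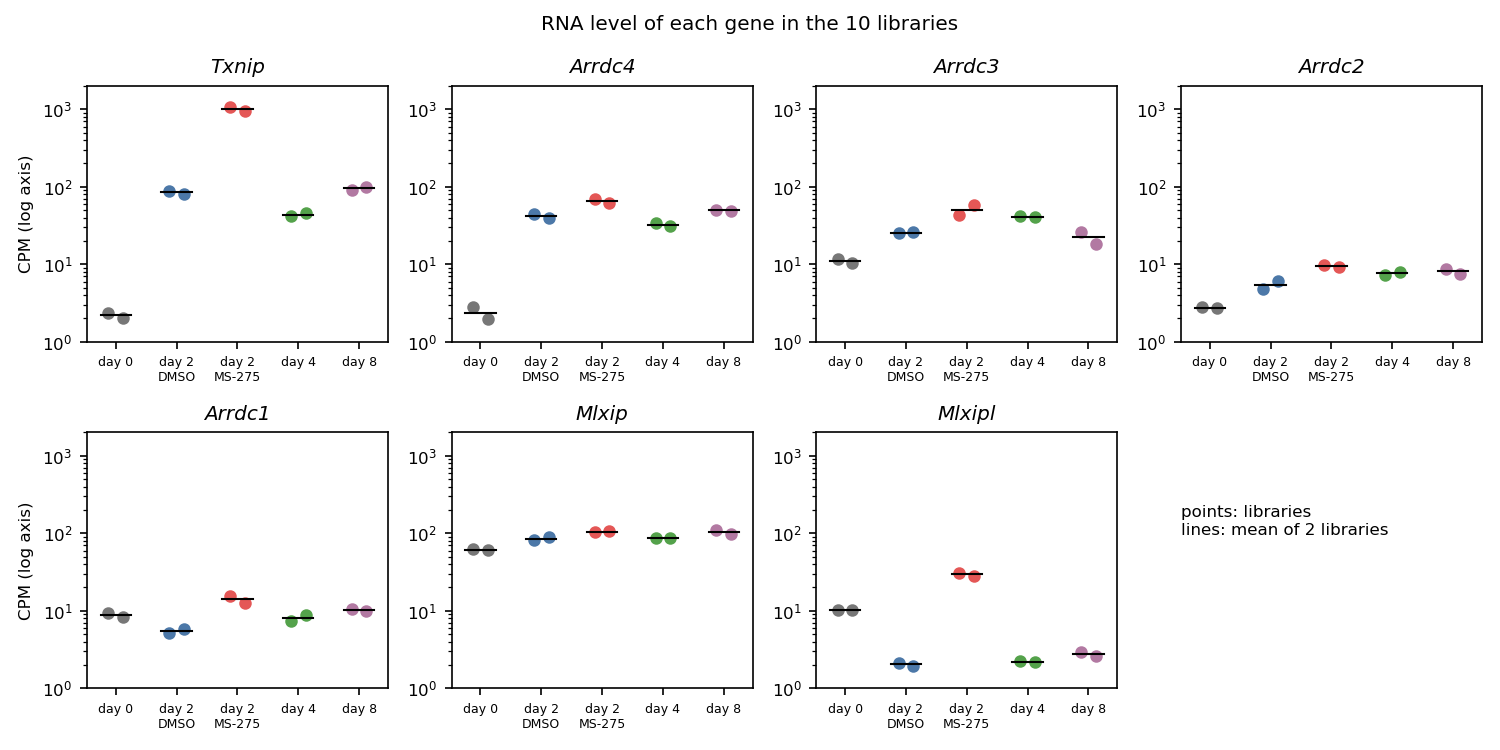
RNA level of each gene in CPM on a log axis, in 2 libraries (points) of each of 5 groups, with the mean as a line. Txnip spans the widest range, from 2.02 CPM at day 0 to 1064 CPM with MS-275, and all 7 genes have their highest mean with MS-275.

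Counted over the set, day 4 against day 0 called 5 of the 7 genes higher (Txnip, Arrdc4, Arrdc3, Arrdc2, Mlxip) and 1 lower (Mlxipl), where 36.2% of all genes tested were called higher and 36.1% lower. The median log2 difference was 1.47 over the 7 genes and 0.01 over all genes. Day 8 against day 4 called 3 higher (Txnip, Arrdc4, Mlxip) and 1 lower (Arrdc3), beside 21.7% and 19.8% of all genes, with medians of 0.34 and 0.00. Day 8 against day 0 called the same number of genes as day 4 against day 0, with 5 higher and 1 lower, beside 38.1% and 37.1% of all genes. The comparisons share groups, so their counts are not independent of each other.

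**Figure D2:**
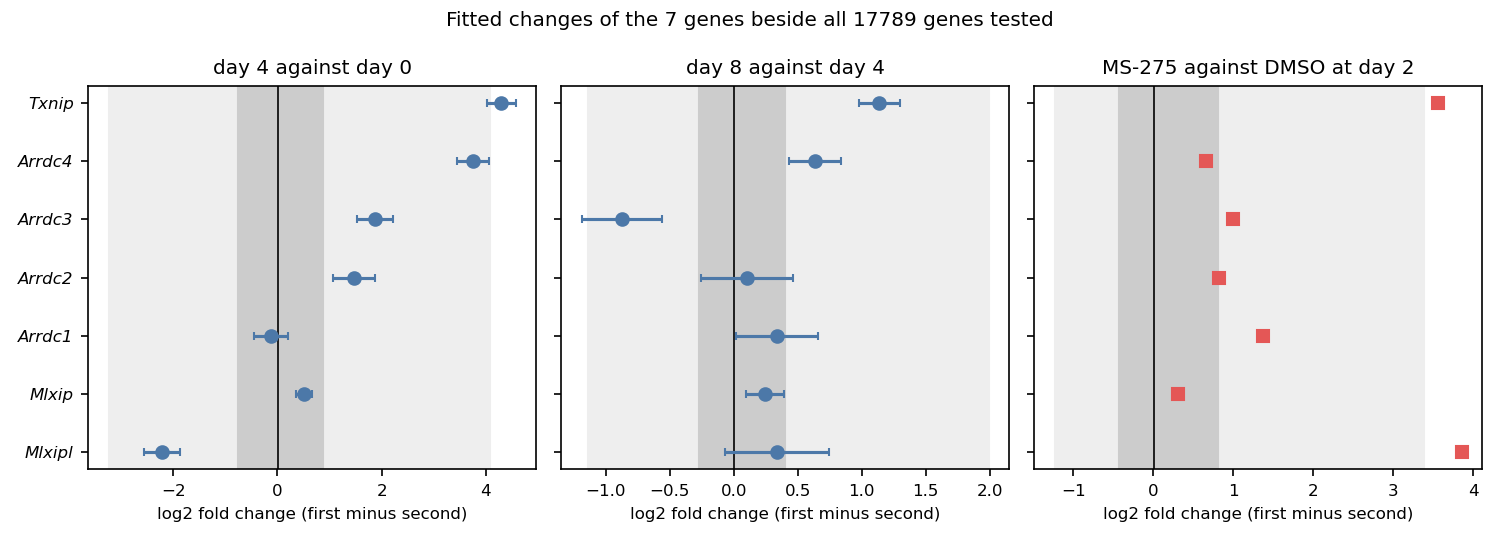
Fitted log2 fold change of each gene in 3 comparisons, with 95% intervals where the comparison was tested (circles) and without where it was used to pick the genes (squares). The grey bands hold the middle of all genes tested (25th to 75th percentile, dark; 5th to 95th, light), the vertical line is their median, and at day 4 Txnip, at 4.30, lies beyond the light band.

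In the MS-275 contrast, all 7 means were above those of the DMSO cells, and no gene's libraries overlapped between the 2 groups. Since the set was picked on this contrast, nothing is read from that count; among all genes tested 31.9% were called higher, 31.4% lower, and 81.5% had groups that did not overlap. The ratio of mean CPM was 11.8 for Txnip and 14.6 for Mlxipl. It was 2.58 for Arrdc1, 1.99 for Arrdc3, 1.76 for Arrdc2, 1.58 for Arrdc4 and 1.24 for Mlxip. Txnip and Mlxipl therefore stood well apart from the other 5, and by fitted log2 difference Mlxipl was 666th and Txnip 803rd from the highest of 17789 genes. The MS-275 mean exceeded the day 0 mean 461-fold for Txnip and 27.9-fold for Arrdc4, but 2.89-fold for Mlxipl, whose day 0 level was already 5.04 times that of the DMSO cells. Relative to the mean, the 2 MS-275 libraries differed most for Arrdc3, with a mean of 50.9 CPM ± 11.2 (SD, n = 2), against 1009 CPM ± 77.3 for Txnip and 29.7 CPM ± 1.83 for Mlxipl.

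Likeness of pattern was measured as the root mean square difference of log2 CPM, each gene centred on its own mean over the 10 libraries. The 5 genes nearest to Txnip were Aldh1a2 (0.71), which makes retinoic acid, Pdgfra (0.89), a receptor for platelet-derived growth factor, Akr1c13 (0.92), an aldo-keto reductase, Nr4a2 (1.07), an orphan nuclear receptor, and Mylk (1.18), myosin light chain kinase. Aldh1a2 stood at 0.212 CPM on average at day 0, 2.99 CPM with DMSO, 39.9 CPM with MS-275, 2.94 CPM at day 4 and 4.40 CPM at day 8. Pdgfra averaged 0.893, 13.3, 70.1, 10.9 and 13.0 CPM in the same order of groups. Both were near 0 at day 0 and highest with MS-275, as Txnip was, but a choice by likeness favours genes with that pattern. The measure also includes the day 2 libraries on which the set was picked, so places in it are a description. Arrdc4 was 33rd of 14787 named genes in likeness to Txnip, at 1.40, and Mlxipl was 7270th, at 2.86. Among the 7 genes, the pair most alike was Arrdc2 and Mlxip, at 0.37, and the pair least alike was Txnip and Mlxipl. The measure is not scaled by how much a gene varies, so genes that vary little come out close to each other. Between lowest and highest group mean, Mlxip spanned 1.72-fold and Arrdc2 3.49-fold, against 461-fold for Txnip.

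The other genes of these pathways did not move as 1 block. Their counts stand beside 36.2% of all genes called higher and 36.1% lower at day 4 against day 0, and 31.9% higher and 31.4% lower with MS-275. A first list held arrestin-fold genes outside the set together with Mlx, the partner of Mlxip and Mlxipl, which is not an arrestin. Of its 7 tested genes, 1 was called higher and 4, Mlx among them, lower at day 4 against day 0. The median log2 difference was -0.36, and 2 were called higher in a fit of the 4 libraries compared alone. Vps26c, a subunit of the retriever complex, fell 1.88-fold (adjusted p = 6.30e-09, edgeR). Arrb1, beta-arrestin 1, fell 1.36-fold by day 4 (adjusted p = 1.62e-04) and rose 2.41-fold from there to day 8 (adjusted p = 2.35e-09). Arrdc5, the remaining alpha-arrestin, did not pass the filter and was at most at 0.105 CPM in any library. With MS-275, 2 of the 7 were called higher and 3 lower, and 1 lower without replicate 1 of DMSO; Mlx fell 1.22-fold (adjusted p = 0.00447).

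In the MAX network, a family of related factors that bind E-boxes, 6 of 10 genes were called higher and 2 lower by day 4. The repressors Mxd3 (14.9-fold), Mxd4 (3.04-fold) and Mxd1 (2.87-fold) rose (adjusted p = 6.21e-12, 6.49e-11 and 1.73e-09, edgeR). With MS-275, 1 was called higher and 5 lower, and 3 were called higher without replicate 2 of MS-275. Mxi1 rose 2.21-fold, while Mycn fell 1.73-fold and Mnt 1.63-fold (adjusted p = 1.18e-09, 7.57e-08 and 1.26e-07).

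The list of the thioredoxin system, to which the binding partner of Txnip belongs, also held the glutaredoxins Glrx and Glrx2, and Ddit4. Of its 12 tested genes, 5 were called higher and 7 lower at day 4 against day 0. The number called higher was between 1 and 3 with 1 of the 4 libraries removed, whichever it was. Prdx2 rose 2.76-fold, while Glrx fell 4.44-fold and Prdx1 2.64-fold (adjusted p = 2.75e-13, 7.53e-13 and 4.38e-13, edgeR). With MS-275, 5 were called higher and 4 lower. The peroxiredoxin Prdx1 rose 2.62-fold and the thioredoxin reductase Txnrd1 1.92-fold, while Prdx2 fell 1.85-fold (adjusted p = 2.18e-12, 1.47e-09 and 6.60e-10). Txn1, thioredoxin itself, stood at 212 and 203 CPM with DMSO and 245 and 233 CPM with MS-275.

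Among 9 NEDD4 family ligases, the partners of alpha-arrestins, 3 were called higher and 3 lower by day 4, and again 3 and 3 from day 4 to day 8. Nedd4l rose 3.07-fold and Hecw1 2.41-fold, while Hecw2 fell 6.002-fold (adjusted p = 2.59e-12, 2.16e-07 and 3.99e-12, edgeR). With MS-275, 2 were called higher and 6 lower. Nedd4l rose 1.75-fold and Itch, the ligase known to target Txnip for degradation, fell 1.55-fold, from 100.3 and 99.6 CPM to 63.8 and 64.8 CPM (adjusted p = 1.14e-07 and 5.47e-07). Hecw1 rose 1.98-fold (adjusted p = 0.00273), but its log2 difference of 0.99 was 0.57 without replicate 2 of DMSO, with the call lost (adjusted p = 0.0601), and 1.62 without replicate 1.

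The list of glucose uptake and phosphorylation also held G6pdx and Gpi1, enzymes that act on phosphorylated glucose, and Slc2a13. Of its 13 tested genes, 5 were called higher and 5 lower by day 4. Slc2a3, a high-affinity glucose transporter, fell 8.58-fold and Slc2a6 3.20-fold, while Slc2a12 rose 3.05-fold (adjusted p = 1.30e-10, 4.28e-06 and 6.05e-04, edgeR). From day 4 to day 8, 4 were called higher and 6 lower. DESeq2 called 3 lower in each of these comparisons. With MS-275, 6 were called higher and 3 lower. Slc2a1, Slc2a3, Hk2 and Gpi1 belong to this list, and their MS-275 libraries differed from each other, as given above. Slc2a13, a proton-coupled transporter of myo-inositol, rose 6.86-fold and Slc2a12 3.37-fold, while Hk3 fell 5.16-fold (adjusted p = 1.95e-06, 1.19e-04 and 4.67e-05). These folds rest on few counts: 21 and 19 for Slc2a13 and 28 and 29 for Slc2a12 with DMSO, and 16 and 12 for Hk3 with MS-275.

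Of 15 tested genes listed as ChREBP targets of sugar and fat metabolism, 8 were called higher and 5 lower by day 4. Pklr, liver-type pyruvate kinase, fell from 4.10 and 3.76 CPM to 1 and 2 counts, and Acacb, the acetyl-CoA carboxylase of the mitochondrial surface, fell 21.6-fold (adjusted p = 1.67e-07 and 8.74e-12, edgeR). Pnpla3, a lipid-droplet protein, rose from 1 and 3 counts to 2.52 and 2.55 CPM (adjusted p = 1.82e-07). With MS-275, 9 were called higher and 4 lower, with a median log2 difference of 0.45 against 0.01 for all genes. Acacb rose 7.82-fold and Tkfc, a kinase of fructose metabolism, 2.04-fold, while Fasn, fatty acid synthase, fell 2.04-fold (adjusted p = 5.68e-10, 5.85e-09 and 1.55e-11). Acacb was singled out after its values were seen, since like Mlxipl it was high at day 0 (23.6 and 23.2 CPM), low with DMSO (3.04 and 3.01 CPM) and high with MS-275 (25.1 and 22.3 CPM).

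Of the 4 class I histone deacetylases, the class to which the targets of MS-275 belong, 1 was called higher and 1 lower with the inhibitor. Hdac1 rose 1.66-fold, from 245 and 244 CPM to 416 and 397 CPM, and Hdac2 fell 1.41-fold, from 219 and 227 CPM to 153 and 163 CPM (adjusted p = 1.53e-09 and 2.99e-07, edgeR). By day 4, 2 were called higher and 2 lower, and none moved more than Hdac8, which fell 1.85-fold.

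**Figure D3:**
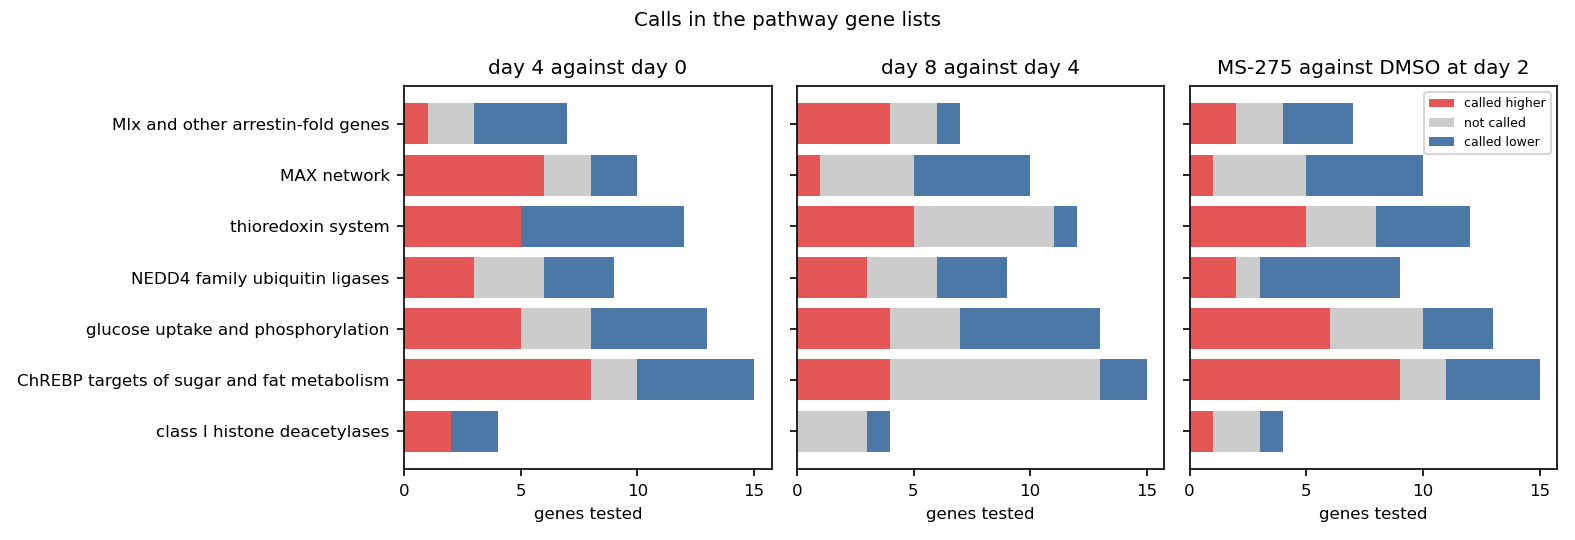
Number of tested genes in each of 7 pathway lists called higher (red), not called (grey) and called lower (blue) at an adjusted p of 0.05, in 3 comparisons. With MS-275 the list of ChREBP targets has 9 genes called higher and 4 lower, and the NEDD4 family has 2 higher and 6 lower. Mlx is listed with the arrestin-fold genes as the partner of Mlxip and Mlxipl and is not an arrestin.

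Peaks were sought within 1 kb of the start and of the end of each gene. The lists were called library by library, and their fold enrichments are the authors' and are used within a list only. Txnip (chr3:96557957-96561857, plus strand) and Arrdc2 (chr8:70835129-70839720, minus strand) had a peak at the start in all 14 lists. Arrdc4 (chr7:68736994-68749238, minus), Arrdc3 (chr13:80883384-80896042, plus), Arrdc1 (chr2:24925352-24935335, minus) and Mlxip (chr5:123394521-123457932, plus) had one in 13 lists. Mlxipl (chr5:135089890-135139768, plus) had one in 1 list. At day 4, 6 of the 7 genes thus had H3K9ac, H3K9cr and H3K18la peaks at the start in both libraries, where 85.7% and 85.6%, 84.3% and 84.2%, and 73.3% and 74.5% of 11617 protein-coding genes with RNA had one. ATAC-seq peaks were found at the start of 6 genes in replicate 1, beside 73.7% of all genes, and of 5 in replicate 2, beside 71.1%. With DMSO 6 genes had an H3K9ac and an H3K9cr peak at the start, beside 83.1% and 83.0%, and with MS-275 6 and 7 had one, beside 89.2% and 88.3%. These shares are high for all genes, so the members' counts do not set them apart. With MS-275 3 genes (Txnip, Arrdc3, Arrdc2) had an H3K18la peak at the start, beside 27.7% of all genes, against 6 with DMSO beside 71.5%.

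The peaks at Txnip lay across its start. In the ATAC-seq lists they ran from -487 to 19 and from -314 to 4 bases from the start, with summits at -105 and -128, upstream of the paired sites printed above. The H3K9ac peak was 2672 and 3288 bases wide at day 4 and 2223 bases wide with DMSO. With MS-275, H3K9ac peaks covered 9698 of the bases within 5 kb on either side of the start, against 2223 bases with DMSO. A gain at least as large was seen at 0.508% of the 11617 genes. For H3K9cr the covered length was 9619 against 2325 bases, a gain reached by 0.560% of genes, and 1 peak of 9972 bases ran from -4409 to 5562, past the gene's end. The H3K9ac peak downstream of the start was 7519 bases long and also ran past the end. For H3K18la the covered length was 2672 against 1884 bases, a gain reached by 1.65% of genes. The MS-275 lists were broader at most genes: the H3K9ac list covered 122 Mb against 34.2 Mb with DMSO, and the median gain over all genes was 1310 bases for H3K9ac and 1305 for H3K9cr, and -613 for H3K18la. Each of these lists came from 1 library, so the differences carry no replicate check, and the 5 kb measure was chosen with the Txnip peaks known.

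The other genes differed among themselves in the covered length. Mlxip gained 5067 bases under H3K9ac and 5033 under H3K9cr, and Arrdc2 gained 4314 and 4469. Those gains were reached by 4.92% and 4.51% of genes for Mlxip and by 8.79% and 7.02% for Arrdc2. Arrdc2 also gained 930 bases under H3K18la, a gain reached by 1.21% of genes and larger than the 788 bases of Txnip. Arrdc4 lay at the opposite end for H3K9ac, with 1970 bases under H3K9ac with DMSO and 1899 with MS-275, a change of -71 that 97.9% of genes exceeded or equalled. For H3K9cr it went from 1616 to 2107 bases, a gain of 491 that 77.98% of genes reached. Its H3K18la peak with DMSO, 620 bases wide, had no counterpart with MS-275. Arrdc1 and Arrdc3 gained 687 and 699 bases of H3K9ac and 500 and 1089 of H3K9cr, less than the median gene.

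Arrdc3 carried some of the strongest histone peaks. At day 4 its H3K9ac peak had a fold enrichment of 164 and 156, above 99.9% and 99.8% of the peaks in the same lists, and its H3K9cr peak one of 162 and 160. Its H3K18la peak, of 22.3 and 25.6, stood above 99.87% and 99.95% of its lists. With MS-275 the H3K18la list had a peak of 8.29 at the same place, with its summit 2425 bases after the start beside 2428 and 2507 at day 4, and a weaker one of 4.39 before the start. These peaks were 4067 to 5501 bases wide at day 4 and lay over the first part of the gene, with H3K9ac summits 3022 and 3109 bases after the start. Arrdc3 has 3 RefSeq starts, and these summits lay near the third, 2711 bases after the first. In ATAC-seq the third start had a peak in both libraries, with fold enrichments of 5.81 and 6.39, above 35.1% and 43.7% of their lists. The first start had a peak in replicate 1 only, of 3.37. At its start Arrdc4 had ATAC-seq peaks of 14.5 and 11.6, above 99.03% and 92.7% of their lists.

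Mlxipl has 2 RefSeq starts 17001 bases apart, and the peaks lay at the downstream one. The upstream start had a peak in the H3K9cr list of the MS-275 cells alone, with a fold enrichment of 2.91, above 3.84% of that list. The downstream start had peaks within 1 kb in 13 of the 14 lists, all but H3K18la with MS-275. That list had a peak of 488 bases just outside the window, beginning 18076 bases after the upstream start. At day 4 the H3K9ac peak there had a fold enrichment of 34.0 and 32.0 and was 1189 and 1132 bases wide. With DMSO the widest H3K9ac peak there spanned 833 bases and with MS-275 4339 bases, and for H3K9cr the widths were 725 and 3810 bases. The DMSO lists held a separate peak further downstream, of 531 bases for H3K9ac and 723 for H3K9cr, inside the span of the MS-275 peak. The E-box of the upstream window thus lay at a start where 13 lists had no peak, and the downstream window, which held none of the motifs searched, lay where 13 lists had one. The count table gives 1 value per gene, so the RNA of the 2 starts was not separated.

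**Figure D4:**
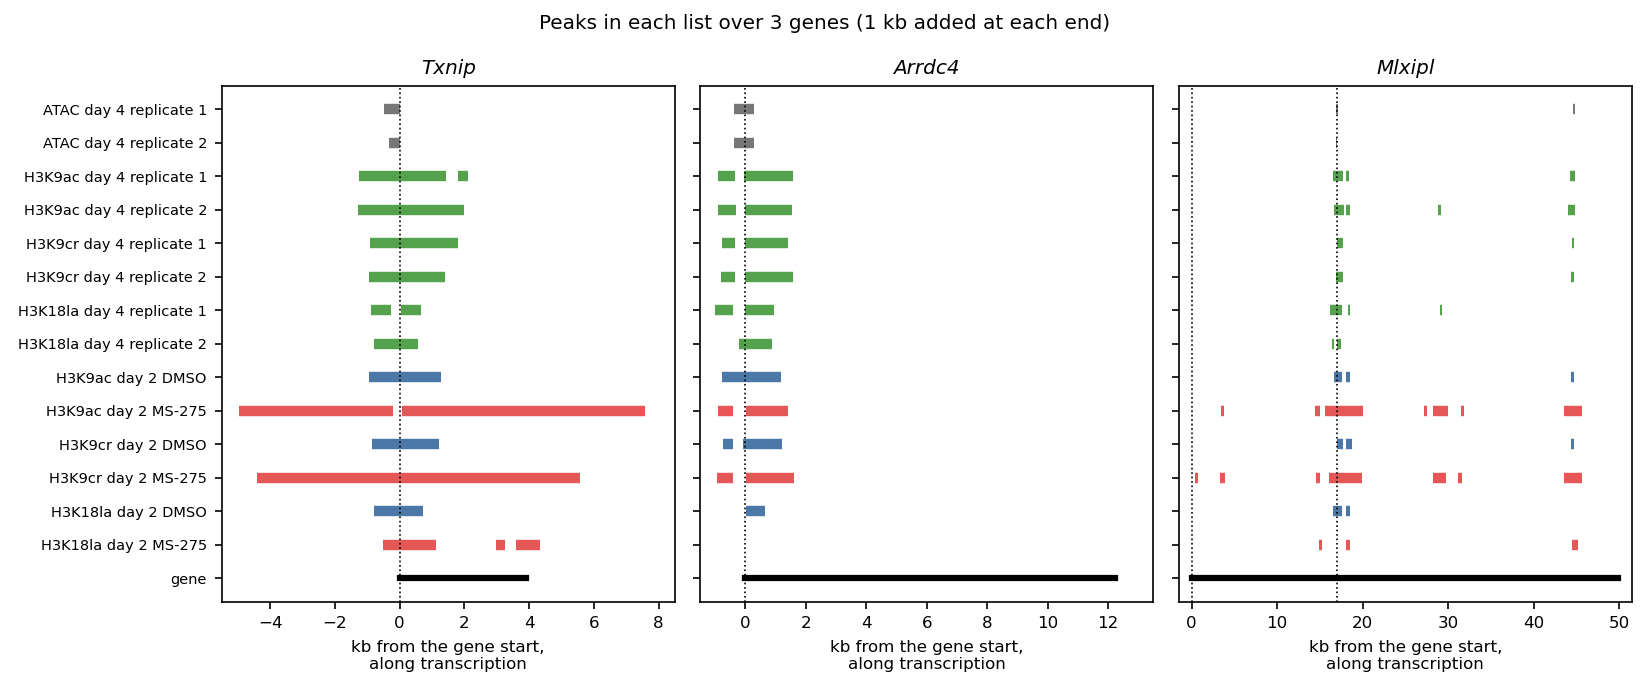
Peaks of the 14 lists over Txnip, Arrdc4 and Mlxipl, in kb from the gene start along transcription, with each gene as a black bar and RefSeq starts as dotted lines (grey, ATAC-seq; green, day 4 marks; blue, DMSO; red, MS-275). The H3K9ac and H3K9cr peaks of Txnip span about the whole gene with MS-275, while those of H3K9ac over Arrdc4 cover 1970 bases with DMSO and 1899 with MS-275, and the Mlxipl peaks lie at the start 17001 bases downstream.

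**Figure D5:**
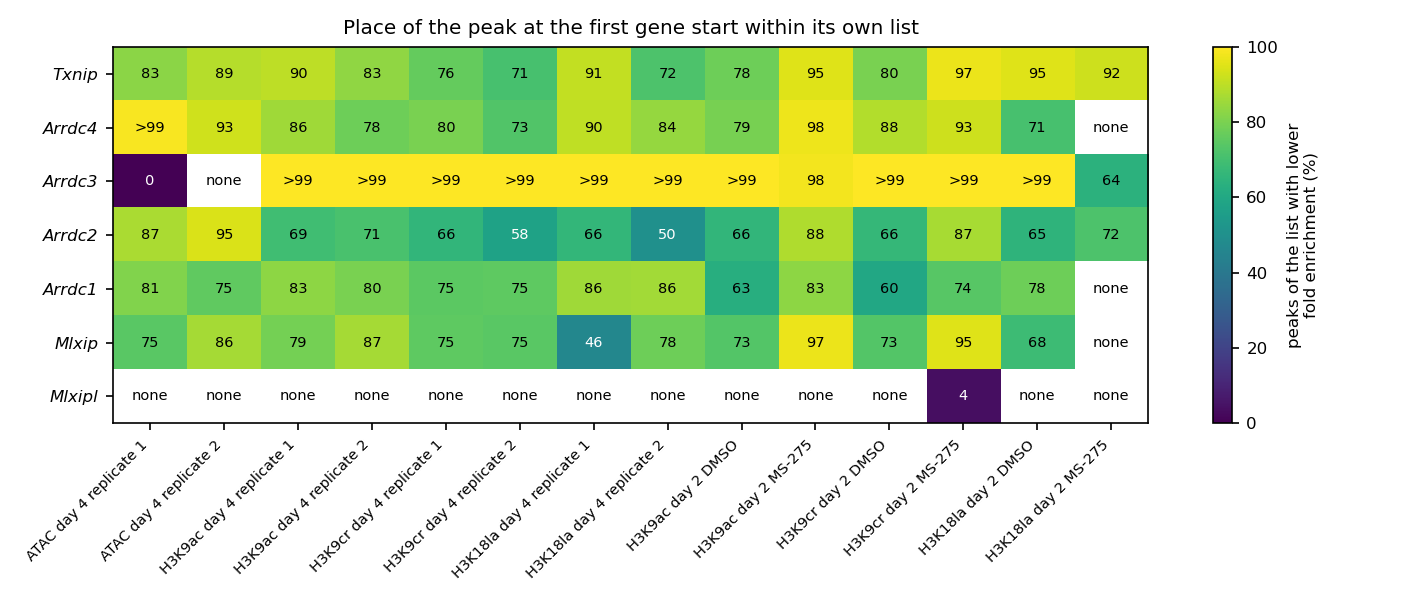
Place of the strongest peak within 1 kb of each gene's first start among all peaks of the same list, as the percent of the list with a lower fold enrichment; white cells marked none have no peak. Arrdc3 stands above 99% of the list in 10 of the 12 histone lists, while its ATAC-seq peaks of 5.81 and 6.39, at the third start, lie outside the window plotted, and Mlxipl has no peak at its upstream start in 13 of 14 lists. Lists differ in length, so places are read within a column.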

How the data were processed

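RNA was measured in 10 libraries and chromatin in 14 ChIP-seq and ATAC-seq libraries with peak lists; 4 input libraries were not analysed here. Per the submitters' processing notes, the authors used Salmon 1.1.0, Bowtie2 2.4.1, MACS2 2.2.7.1, DESeq2 1.26.0 and GRCm38. The deposited RNA table holds estimated counts per gene, of which 19.3% to 25.8% of values per library were not whole, so reads shared by paralogs may be split. Per the file headers, the deposited peak lists give the pileup signal, −log10 p-values and q-values, and the fold enrichment (a ratio over local background); every q-value listed was at least 2 on the −log10 scale. The peak control and settings are not given in the sources used here. Depth limits precision: Mlxipl rests on 34 to 57 counts in each library of DMSO, day 4 and day 8.

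Counts were rounded and tested with edgeR 4.0.16 (quasi-likelihood, TMM, filterByExpr) in 1 fit of 5 groups, with Benjamini-Hochberg adjustment over 17789 genes and calls at an adjusted p of 0.05. CPM use TMM library sizes. The alternatives were DESeq2 1.42.0, relative log expression factors, no filter, the 4 libraries compared alone, the replicate number as a block, each library left out, and other peak windows and thresholds. Genes were named by rule: all 7 members, up to 3 called genes with the largest change and at least 1 CPM per pathway list and comparison, and the 5 genes most like Txnip; others are said to be singled out or show how libraries differ. The members, lists and tests were chosen with earlier results of these data known. The labels call the replicates biological but do not say how the cultures were separated, so p-values measure the spread between these samples. Same-numbered libraries did not deviate together (r across genes -0.0306 to 0.0378), so they were not treated as pairs. Gene positions and promoter windows are from RefSeq on GRCm38.p6, in which all 7 members matched; 55144 of 55385 identifiers had a symbol.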

Additional observations from a re-analysis of the deposited data

How the results depend on the processing

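Of 252 recalculated fold changes of the 7 genes, 248 kept their direction and their side of the threshold, or, with MS-275, moved by less than the spread between libraries. Leaving out 1 of 2 libraries shifts a group mean by less than that spread by construction. With MS-275 those alternatives could thus hardly come out otherwise, and they are no check of stability. The exceptions were Mlxip at day 8 against day 4, with log2 0.24, 0.21 and 0.14 and no call without replicate 1 or 2 of day 4 or replicate 1 of day 8, and Arrdc2 in the same comparison, whose values with 1 library left out ranged from -0.020, without replicate 1 of day 8, to 0.20; the alternatives use fewer samples. All 36 counts of called genes, under DESeq2, relative log expression factors, no filter, the 4 libraries alone, the block and each library left out, stayed within 1.5 times of the main count. DESeq2 called 11971, 6215, 12461 and 10084 genes in the order of the counts given next. With the replicate number as a block, 12801 genes were called at day 4 against day 0, 7312 at day 8 against day 4, 13271 at day 8 against day 0 and 11182 with MS-275, against 12866, 7387, 13373 and 11256 without it, and no call on the 7 genes changed. Of 729 recalculated fold changes of named pathway genes, 714 kept their call, and of 504 recalculated list counts, 473 stayed within 1.5 times; these were added with the values known. With a window of 5 kb in place of 1 kb, 5 genes in place of 3 had an H3K18la peak with MS-275, a wider window by construction; the whole gene, a −log10 q of at least 5, 50 bases of overlap and every RefSeq start moved no such count by over 1.5 times. The day 2 peak lists have 1 library each, and weak peaks near the threshold depend on its depth, which the lists do not give.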
